A study of Caenorhabditis elegans with 2 samples.

Results

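The 9 genes described here, ints-1, ints-2, ints-3, ints-4, ints-5, ints-7, ints-8, ints-9 and ints-11, encode subunits of the Integrator complex in Caenorhabditis elegans. They were taken by name from 19973 protein-coding genes of the nuclear chromosomes, together with every binding peak within 2000 bp of them. The set was chosen on the signal of its own binding peaks, because the peak at ints-4 ranks among the strongest in the data. Its peak counts and signals are therefore descriptions, and no test was made on them. The data are chromatin immunoprecipitation with sequencing (ChIP-seq), in which DNA bound by a protein is recovered with an antibody and read. The recovered protein was MCD-1, a zinc finger protein first known as a modifier of cell death, carrying an EGFP tag that an anti-GFP antibody binds. Both biological replicates came from strain RW12215, in which CRISPR editing had placed the tag in the endogenous gene as st12215[mcd-1::TY1::EGFP::3xFLAG] II. The worms were grown in synchrony from starved first-stage larvae obtained by bleaching, and were collected whole as young adults at 65 hours. The 2 replicates form 1 group, so nothing is compared between conditions, and binding in different tissues of the worm cannot be told apart. A control experiment, which the labels list as possible, was not analysed here.

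Integrator associates with RNA polymerase II. It cuts the nascent transcript, both at the 3′ ends of small nuclear RNAs (snRNAs, the RNA cores of the splicing machinery) and close to the promoters of protein-coding genes, where the cut ends transcription early. In the human complex INTS4, INTS9 and INTS11 form the cleavage module. INTS1, INTS2 and INTS7 build the backbone, INTS5 and INTS8 form a shoulder, and a phosphatase module holds protein phosphatase 2A against the rest. INTS3 also belongs to a separate complex that binds single-stranded DNA at breaks. The results below follow that order, with the worm genes taken by their human counterparts.

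The DNA just upstream of 5 of the genes is printed because these stretches hold the summits of 3 promoter peaks or, at ints-11 and ints-7, the promoters where the lists disagreed or held no peak. Sequences are from the RefSeq genome in build ce11 (WBcel235), each on the strand of its gene, 5′ to 3′, and each ends at the base before the annotated 5′ end of the gene. They are V:7575671-7575801 (+) for ints-9, V:14185613-14185685 (+) for ints-2, V:18533803-18533952 (+) for ints-5, II:8143479-8143628 (−) for ints-11 and II:11582740-11582848 (+) for ints-7. Capitals mark matches, on either strand, to 3 short words. The words are GAGCG and also GCGCG, with CTGCG as the last.
ints-9: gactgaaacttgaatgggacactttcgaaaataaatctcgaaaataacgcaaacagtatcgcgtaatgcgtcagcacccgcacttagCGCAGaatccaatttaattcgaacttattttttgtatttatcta
ints-2: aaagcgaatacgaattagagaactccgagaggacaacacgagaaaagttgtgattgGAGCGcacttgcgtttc
ints-5: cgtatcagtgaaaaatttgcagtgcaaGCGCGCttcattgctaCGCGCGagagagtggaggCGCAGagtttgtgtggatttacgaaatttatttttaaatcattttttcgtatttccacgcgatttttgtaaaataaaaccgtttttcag
ints-11: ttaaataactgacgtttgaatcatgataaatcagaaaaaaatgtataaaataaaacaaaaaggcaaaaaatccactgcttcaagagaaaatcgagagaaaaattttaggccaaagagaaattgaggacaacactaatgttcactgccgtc
ints-7: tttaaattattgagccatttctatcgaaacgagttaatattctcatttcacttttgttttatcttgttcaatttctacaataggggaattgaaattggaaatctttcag
The ints-5 stretch carried 5 matches, which overlap in part, the ints-9 and ints-2 stretches 1 each, and the ints-11 and ints-7 stretches none. The peak summit lay at base 93 of the ints-9 stretch, base 54 of the ints-2 stretch and base 41 of the ints-5 stretch. In the ints-11 stretch base 108 was the summit of a peak that only replicate 1 gave. The stretches of ints-2 and ints-9 are the whole gap to a gene on the other strand, and that of ints-7 is the whole gap to the gene before it on the same strand.

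Of the 9 genes, 7 had the summit of a conservative peak at their promoter, in all 4 thresholded lists. A promoter summit lay between 1000 bp upstream and 200 bp downstream of the 5′ end, the outermost start of the gene in Ensembl models. The conservative list holds the 3903 peaks the authors found reproducible between the replicates. Its threshold was an irreproducible discovery rate (IDR, the expected share of irreproducible peaks at that rank or above) of 0.01. Over all protein-coding genes 13.2% had such a summit in the conservative list. The pooled list, from the combined reads, likewise gave 7 of the 9 genes, against 14.4% of all genes. Replicate 1's own list gave 8, against 12.4% of all genes, and replicate 2's list gave 7, against 10.8% of all genes. When each summit was given only to its nearest 5′ end the count stayed at 7 of 9, against 9.95% of all genes. A summit from the upper quartile of conservative peaks by signal stood at 6 of the 9 promoters, against 5.31% of all genes. A conservative peak lay within 2000 bp of 8 of the 9 genes, against 25.4% of all genes. Since the genes were chosen for a strong peak, these shares are set side by side without a test. The lists overlap in content: all 3521 peaks that the conservative and pooled lists share carry the same signal value, so they are not independent.

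The signal value is the enrichment given to each peak by the authors' peak caller, on a scale that is not given in the sources used here. To set the replicates side by side, each replicate's value at a peak was divided by that replicate's median over the conservative peaks, which was 87.3 in replicate 1 and 66.7 in replicate 2. A multiple of 1 is thus a typical conservative peak. The 7 promoter peaks of the Integrator genes had a median multiple of 3.29, against 1.28 over all promoter-proximal conservative peaks. Their order ran from ints-4 through ints-2, ints-5, ints-1, ints-3 and ints-9 to ints-8. The replicate ranges did not overlap between ints-4 and any other gene, nor between ints-5 and ints-1, nor between ints-9 and ints-8. They overlapped for ints-2 and ints-5, for ints-1 and ints-3, and for ints-3 and ints-9. The number of reads behind each value is unknown, because the files hold no read counts.

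**Figure D1:**
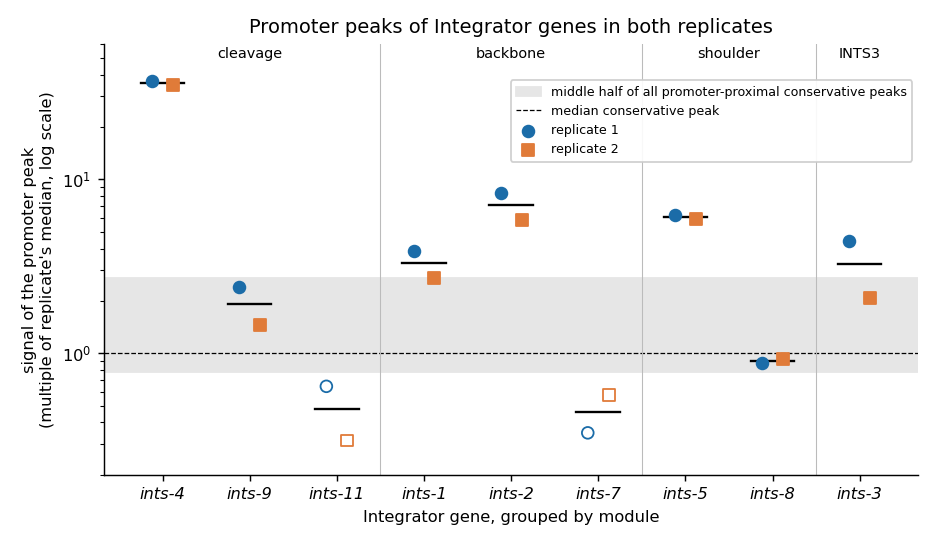
Signal of the promoter peak of each Integrator gene, as a multiple of the replicate's median over conservative peaks (log scale), for replicate 1 (circles) and replicate 2 (squares), with the mean as a bar. Open symbols are ranked peaks that miss the conservative list. The grey band spans 0.782 to 2.72, the middle of all promoter-proximal conservative peaks between their quartiles. The ints-4 points, at 36.8 and 34.8, stand above all others, and ints-8 sits just under 1 in both replicates.

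In the cleavage module, ints-4 had the strongest peak of the Integrator set, and ints-11 had the weakest promoter peak of the module. INTS4 is a helical-repeat scaffold that holds the catalytic pair. The ints-4 peak (WBGene00012234, chromosome I, 13663113 to 13663675) had a signal value of 5506, the rank 8 among the 3903 conservative peaks, or 0.205% of the way down the list. Replicate 1 gave 36.8 and replicate 2 gave 34.8 times the median, a mean of 35.8 ± 1.41 (SD, n = 2). The peak ranked 10 in replicate 1 and 6 in replicate 2. Its value was 4.40 to 5.99 times that of ints-2, the next Integrator gene, over the replicates. The peak was 563 bp wide, and 1.15% of conservative peaks were at least that wide.

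The ints-4 summit was the only one of the 7 main promoter summits that lay inside its gene. It lay 21 bp downstream of the 5′ end, in the 185 bp 5′ UTR of exon 1 of 8, with the replicate summits at 33 and 10 bp. Across promoter-proximal conservative peaks 10.4% had the summit downstream of the nearest 5′ end. The nearest gene before it, W09C5.12, starts 1019 bp upstream on the opposite strand and had no promoter summit of its own. The next conservative peak lay 3588 bp from the gene, outside the 2000 bp limit, at cox-4 (a cytochrome c oxidase subunit), with a signal of 809.

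The conservative peaks on either side of ints-4 in rank were close to it. Ranks 7, 9 and 10 overlapped it in the range of the replicates, and rank 6 lay just above it in both. Rank 6, a site in no gene's window on chromosome I (2639558 to 2640058), had a multiple of 37.5 ± 0.870. Rank 7, inside C34C12.2 on chromosome III, had 36.7 ± 3.29. Rank 9 lay 27 bp upstream of rpl-12 (a large-subunit ribosomal protein) and 366 bp upstream of lin-54 (a DNA-binding member of the DRM repressor complex), with 34.8 ± 3.28. Rank 10, upstream of cdc-48.1 (an ATPase that unfolds ubiquitinated proteins), had 33.6 ± 14.1 (SD, n = 2 in each case), with the replicates far apart.

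**Figure D2:**
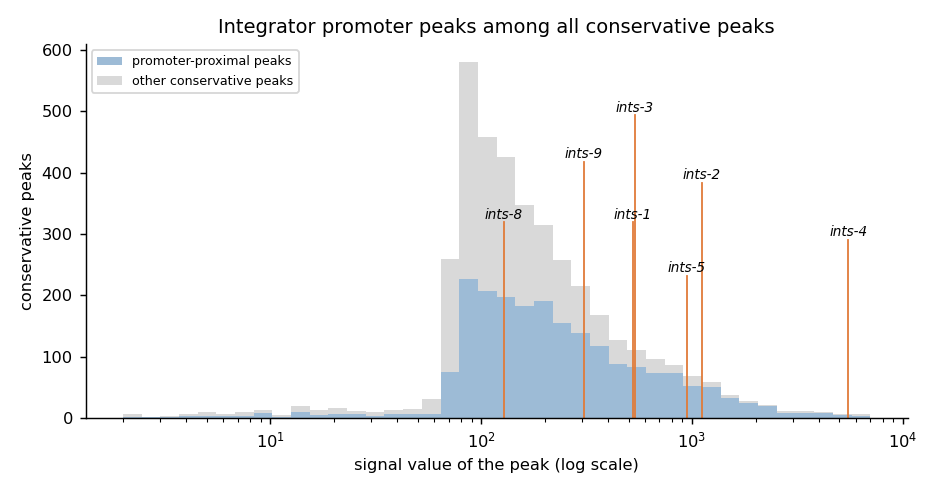
Number of conservative peaks by signal value (log scale), promoter-proximal peaks in blue at the base of each bar and the rest in grey above. Vertical lines mark the 7 Integrator promoter peaks. The median of the list is 148; ints-8 at 128 lies below it, and ints-4 at 5506 lies near the end of the range.

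The gene for INTS9, the inactive partner of the nuclease, had a promoter peak in the upper quartile of conservative peaks and a stronger one inside. At the ints-9 promoter (WBGene00017608, V:7575622-7575860) the signal was 307, at rank 910. Replicate 1 gave 2.40 and replicate 2 gave 1.45 times the median, a mean of 1.92 ± 0.671 (SD, n = 2). The summit lay 39 bp upstream of ints-9 in both replicates. It also lay 93 bp upstream of snu-66, which encodes a splicing factor of the tri-snRNP and points the other way across a gap of 131 bp. The peak cannot be assigned to one of the pair.

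The stronger peak lay 4758 bp into ints-9, in its long intron (V:7580394-7580760). That intron contains the whole of ets-6, a gene for an ETS-domain transcription factor on the opposite strand, and the summit was 14 bp upstream of the ets-6 5′ end. It had a signal of 818 at rank 301, with multiples of 6.24 and 4.21 in replicates 1 and 2, a mean of 5.23 ± 1.44 (SD, n = 2). Both replicates exceeded both values of the ints-9 promoter.

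The gene for the catalytic subunit, ints-11 (WBGene00008642, II:8141209-8143478, minus strand), had a promoter peak in the list of replicate 1 alone. That peak lay 43 bp upstream of the 5′ end, with a signal of 56.3, or 0.645 times the median, at rank 2938 of 3339 and an IDR of 0.00407. The same summit lay 360 bp upstream of the divergent gene rpl-10, within the promoter window of that gene as well. In replicate 2 the nearest ranked peak, 32 bp downstream of the 5′ end, reached 21.0, or 0.315 times the median, with an IDR of 0.646. The ranked list behind the conservative one gave a peak 36 bp downstream at a signal of 74.5 with an IDR of 0.175, and the pooled ranked list gave the same peak an IDR of 0.0218. The ints-11 promoter peak thus passed the IDR threshold of 0.01 in replicate 1 and missed it in the other lists.

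The conservative peak closest to ints-11 lay outside its promoter window and inside that of another gene. It lay 1058 bp upstream (II:8144351-8144720), beyond the 5′ end of the divergent ribosomal protein gene rpl-10. Its summit fell 226 bp upstream of F10B5.2. Its signal was 87.4, at rank 3171, with multiples of 0.497 and 0.630, a mean of 0.564 ± 0.0943 (SD, n = 2). It passed the threshold in the list of replicate 2 and not in that of replicate 1. No conservative summit stood at the rpl-10 promoter, 402 bp from ints-11.

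Among the backbone genes, ints-2 and ints-1 had promoter peaks shared with a neighbour and ints-7 had none. The ints-2 peak (WBGene00013877, V:14185482-14185887) had a signal of 1111 at rank 191. Replicates 1 and 2 gave 8.37 and 5.82 times the median, a mean of 7.10 ± 1.80 (SD, n = 2). Its summit lay 20 bp upstream of ints-2 and 54 bp upstream of trm-1, a gene for a tRNA methyltransferase that starts only 73 bp away on the other strand. This was the second strongest Integrator promoter peak by its mean, with a range that contained both values of ints-5.

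Weaker peaks also fell near ints-2. A peak 1251 bp past the end of the gene (V:14193412-14193781) had a signal of 111 at rank 2559 and a mean multiple of 0.785 ± 0.272 (SD, n = 2). Its summit lay 66 bp upstream of atfs-1, the transcription factor of the mitochondrial unfolded protein response. In the pooled list alone, a peak in coding exon 6 of ints-2, 1921 bp from the 5′ end, passed with a signal of 68.1 and a score of 834, just above the lowest score of 830. The nearest peak beyond the 2000 bp limit was 2228 bp from ints-2 in the list of replicate 1, with a signal of 24.0.

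The gene for INTS1, the largest scaffold subunit, had a summit 40 bp upstream of its 5′ end (WBGene00015499, chromosome I, 6011788 to 6012071). The signal was 522 at rank 521, with multiples of 3.87 and 2.71 and a mean of 3.29 ± 0.822 (SD, n = 2). The divergent gene rnf-1 starts 390 bp away, and the summit was 351 bp upstream of it, so the peak sat at the ints-1 side of the gap.

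At ints-7 (WBGene00008361, II:11582849-11588490) no peak of any thresholded list lay within 2000 bp. The gene starts 109 bp behind smc-6, a gene for a chromosome maintenance subunit read in the same direction. The ranked lists held a weak peak 64 bp into ints-7, in coding exon 1, with a signal of 68.1 and an IDR of 0.0286 in the conservative ranked list. In replicate 1 it reached 30.4, or 0.348 times the median (IDR 0.695), and in replicate 2 it reached 38.3, or 0.574 times the median (IDR 0.0620). The smc-6 promoter did have a conservative peak (II:11577900-11578269), 631 bp upstream of smc-6, with a signal of 122 and a mean multiple of 0.763 ± 0.274 (SD, n = 2). Closely spaced worm genes on the same strand can be transcribed together as an operon, whose promoter then lies before the gene at the head; whether smc-6 and ints-7 are such a pair was not tested.

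**Figure D3:**
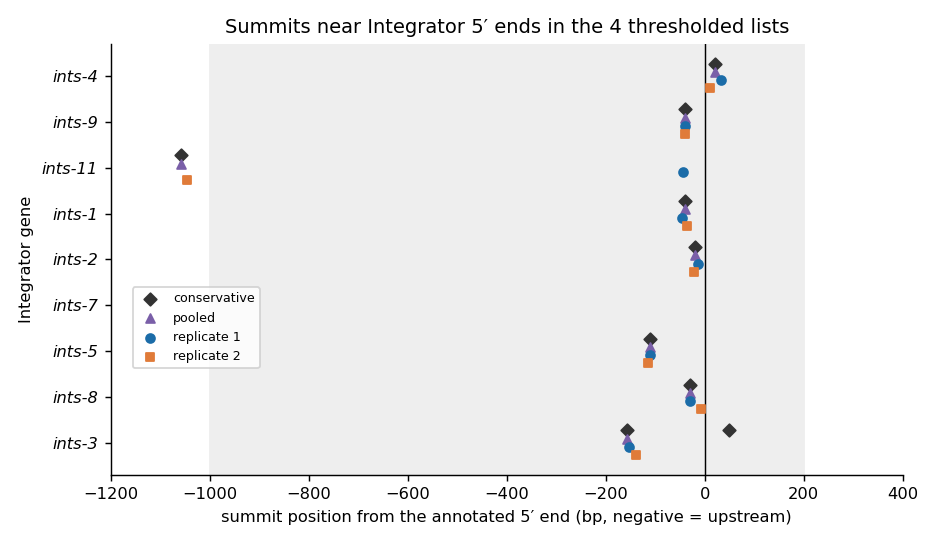
Position of peak summits from the annotated 5′ end (bp, negative upstream) for the 9 Integrator genes in the conservative, pooled, replicate 1 and replicate 2 thresholded lists. The grey area is the promoter window, from 1000 bp upstream to 200 bp downstream. Summits of 7 genes fall at nearly the same place in all lists, ints-11 has a promoter summit in replicate 1 alone, and ints-7 has none.

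The shoulder genes differed from each other by more than the spread between replicates. The ints-5 peak (WBGene00013075, V:18533621-18534000) had a signal of 945.8 at rank 247. Replicates 1 and 2 gave 6.21 and 5.87 times the median, a mean of 6.04 ± 0.235 (SD, n = 2). Its summit lay 110 bp upstream of the 5′ end, and no gene stood nearby: hmit-1.2, a gene for a proton-coupled inositol transporter, ends 4796 bp upstream. With ints-4 it was the other Integrator gene whose promoter peak had no second gene close by.

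The ints-8 promoter peak (WBGene00013021, chromosome I, 13470216 to 13470585) was the weakest of the 7. INTS8 is the subunit that contacts protein phosphatase 2A in the human complex. The signal was 128 at rank 2242, with multiples of 0.883 and 0.923 and a mean of 0.903 ± 0.0284 (SD, n = 2). The summit lay 30 bp upstream of the 5′ end, behind Y48G10A.3, which ends 220 bp away on the same strand. The strength of ints-4 was 41.7 times that of ints-8 in replicate 1 and 37.7 times in replicate 2.

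As at ints-9, the stronger peak of the ints-8 locus was internal. It lay in an intron 6433 bp from the 5′ end (chromosome I, 13463729 to 13464185), with its summit 17 bp upstream of rpr-1, the gene for the RNA of RNase P, which trims the 5′ ends of tRNA precursors. Its signal was 986 at rank 235, and the multiples were 6.46 and 6.23, a mean of 6.34 ± 0.164 (SD, n = 2). A nested gene on the opposite strand thus stood at both conservative peaks of the set with a summit in an intron, ets-6 in ints-9 and rpr-1 in ints-8.

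**Figure D4:**
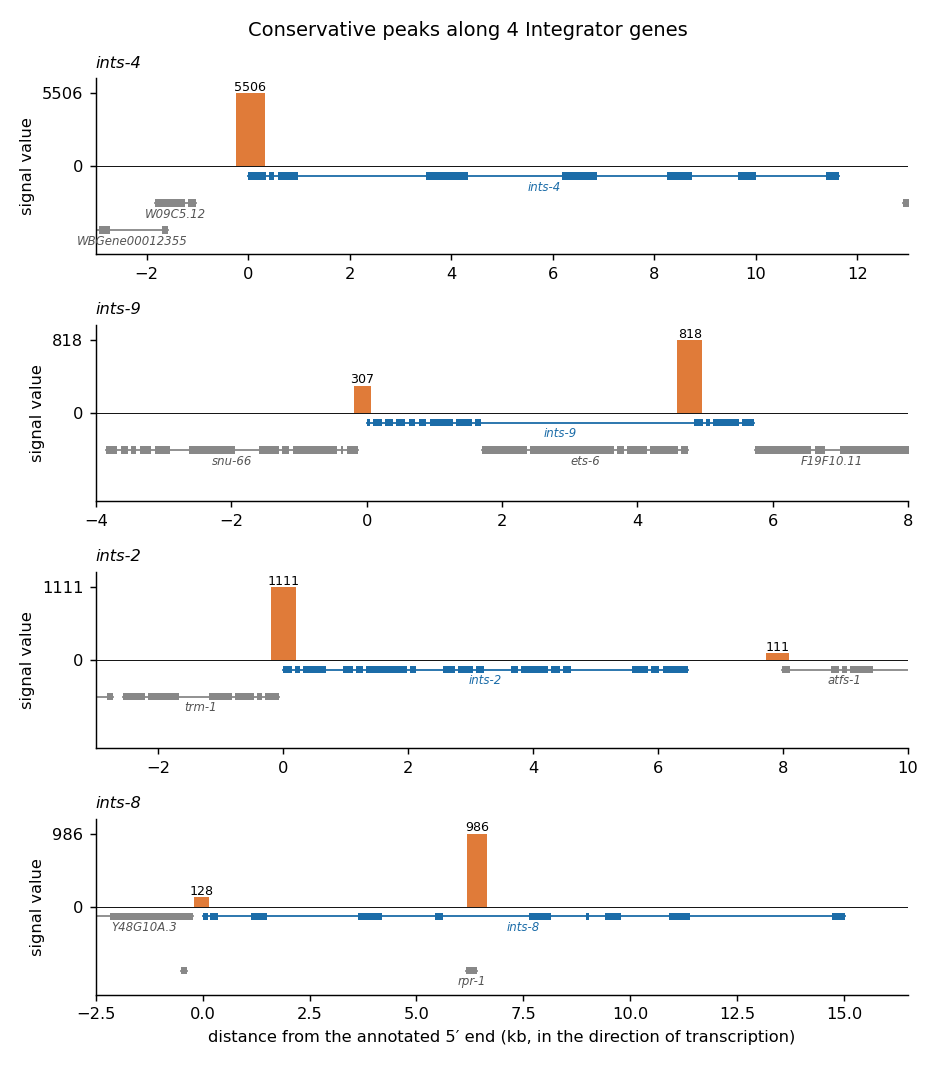
Conservative peaks (orange, height is the signal value, each panel to its own maximum) along ints-4, ints-9, ints-2 and ints-8, by distance from the 5′ end (kb) in the direction of transcription. Below are the exons of the Integrator gene (blue) and of its neighbours (grey), protein-coding genes of the same strand in the upper row, of the opposite strand in the middle row, and noncoding genes at the bottom. The peak at 0 is the highest in ints-4 and ints-2, whereas the peaks at ets-6 (818) and rpr-1 (986) exceed those at the 5′ ends of ints-9 (307) and ints-8 (128).

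The ints-3 promoter, with a single-stranded DNA repair role known for its human product, differed most between the replicates among the 7. Its peak (WBGene00022360, chromosome I, 1514436 to 1514782) had a signal of 534 at rank 515. Replicate 1 gave 4.42 and replicate 2 gave 2.07 times the median, a mean of 3.24 ± 1.66 (SD, n = 2). The replicates thus differed 2.14-fold, and 3.47% of conservative peaks differed by more. The summit lay 158 bp upstream of ints-3 and 180 bp upstream of Y92H12A.5, near the middle of the 337 bp between these divergent genes. A second conservative entry, 49 bp downstream of the 5′ end with a signal of 19.8, overlapped the same replicate peaks and was absent from the other thresholded lists.

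Across the 7 promoter peaks the summits were close to the 5′ end and steady between replicates. The median position was 39 bp upstream, against 186 bp upstream over all promoter-proximal conservative peaks. The replicate summits were 0 to 23 bp apart, with a median of 9 bp, against a median of 20 bp over all conservative peaks. That larger set includes weaker peaks and peaks away from promoters, and whether the distance follows the signal was not tested. Replicate 1 gave the higher multiple in 6 of the 7 genes, and ints-8 was the exception. The log2 ratio of the multiples, replicate 1 over replicate 2, had a median of 0.515 over the 7 peaks. Over 3860 conservative peaks matched in both replicates the median was 0.0113, and the difference was not tested. The positions carry a limit: 52.9% of conservative peaks had a width of exactly 370 bp with the summit in the centre, among them the ints-8 promoter peak, so for such peaks the summit and the centre of the peak are the same point.

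The Integrator genes differ in what lies upstream. With a limit of 500 bp, chosen after the data were seen, 5 of the 9 genes have a divergent neighbour, 2 follow a gene on the same strand, and 2 have no gene that close. A conservative promoter summit was found at 4 of the 5 divergent genes (ints-1, ints-2, ints-3 and ints-9 but not ints-11), against 35.1% of the 1893 genes so arranged. It was found at 1 of the 2 tandem genes (ints-8 but not ints-7), against 11.6% of 3785 genes, and at both genes with open DNA upstream, ints-4 and ints-5, against 10.7% of 14295 genes. In each divergent pair with a summit the same peak fell in the window of both genes.

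The short words marked in the printed stretches were counted within 100 bp of each summit, on both strands, with the word list chosen knowing earlier results of these data. GCGCG was found at 6 of the 7 Integrator summits (all but ints-9), against 46.6% of promoter-proximal summits. CTGCG was found at 5 of 7, against 38.2%, and GAGCG at 4 of 7 (ints-1, ints-2, ints-3 and ints-4), against 44.5%. GAGCG and CTGCG can each overlap GCGCG by up to 3 letters, as CTGCG did at ints-2, so these counts are not independent. In 300 bp promoters, from 250 bp before to 50 bp after the 5′ end, GCGCG was found at 6 of the 9 genes, against 14.1% of all promoters. GAGCG was found at 5 of 9, against 19.1%, and CTGCG at 4 of 9, against 19.6%. The ints-4 window held 3 copies of GAGCG, centred 91 and 50 bp before and 87 bp after the summit. At ints-1 and ints-2 the word lay within 5 bp of the summit.

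Words known from cell cycle promoters were also counted. They are longer than the words above, so each count is read only beside its own share of promoter-proximal summits. GCGGGAA, a core of E2F sites, was found at 1 of the 7 summits (ints-3), against 6.52% of promoter-proximal summits, and TTTCCCGC at that same summit, which it overlaps on the other strand, against 3.57%. TTCCCGCC was found at none, against 2.28%, and the E-box CACGTG at none, against 4.95%. TTTGAA, part of the CHR element bound by DRM complexes, was found at 2 of 7 (ints-3 and ints-4), against 39.2%. TTTCGAA was found at 1 of 7 (ints-9), against 10.4%. These are counts of letters, and they say nothing of which protein was bound.

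The letters around the summits otherwise varied among the genes. The GC content of the 201 bp windows had a median of 36.8% over the 7 genes, against 42.3% over promoter-proximal summits. The ints-4 window stood highest at 50.7% and the ints-8 window followed at 47.8%. The letters TTTCAG, which resemble the acceptor used in worm trans-splicing, directly preceded the annotated 5′ end of ints-5, ints-7 and ints-8, as they did for 12.3% of protein-coding genes. For these 3 genes the true start of transcription may lie upstream of the annotated end, and positions are given from the annotation.

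Related genes were read from lists of the same pathway. The share of all protein-coding genes with a conservative promoter summit, 13.2%, or 9.95% when each summit was given only to its nearest 5′ end, applies to each list. Of the other Integrator and associated genes, 4 were in the annotation and 1 had such a summit. That gene was paa-1, for the scaffold subunit of protein phosphatase 2A, at 2.03 ± 0.195 times the median (SD, n = 2), and the summit was nearer to F48E8.8. The phosphatase-module gene ints-6 had only a weak ranked peak in replicate 1, at 0.325 times the median, and none in replicate 2. At ints-13 the ranked peaks reached 0.185 and 0.232 times the median, below the level of ints-7 and ints-11. The remaining gene, let-92, had a promoter summit in the thresholded list of replicate 2 alone. Its ranked promoter peaks reached at most 0.214 times the median in replicate 1 and 0.289 in replicate 2.

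The machinery that cuts mRNA 3′ ends shares ancestry with Integrator, since INTS9 and INTS11 are paralogues of CPSF2 and CPSF3. A conservative promoter summit stood at 12 of its 19 genes, against 13.2% of all genes, and at 8 of 19 when each summit was given only to its nearest 5′ end. The strongest were pabp-2 (nuclear poly(A)-binding protein) at 10.3 ± 1.27, cpsf-1 (the scaffold of the polyadenylation-signal complex) at 8.22 ± 0.996 and cfim-1 (cleavage factor Im) at 6.66 ± 3.19 times the median (SD, n = 2 each). The pabp-2 summit, 393 bp upstream, was nearer to C17E4.6, and the cfim-1 summit was nearer to slc-25A42. The exonuclease gene xrn-2 followed at 1.72 ± 0.412. The paralogues cpsf-2 and cpsf-3 had no thresholded promoter summit. A ranked peak at cpsf-2 reached 0.132 times the median in replicate 1 alone, and that at cpsf-3 reached 0.297 in replicate 2 alone. Within the paralogue pairs, ints-9 thus had a conservative promoter summit and cpsf-2 none, while neither ints-11 nor cpsf-3 had one.

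Genes of polymerase II pausing and elongation had conservative promoter summits at 5 of 14, also by the nearest 5′ end alone, led by emb-5 (the SPT6 histone chaperone) at 4.78 ± 0.622 and pafo-1 (a PAF1 complex subunit) at 4.26 ± 0.578 times the median. The kinase gene cdk-9 had 1.31 ± 0.0919 and ell-1 (an elongation factor) had 0.983 in replicate 1 and 1.23 in replicate 2. Genes of snRNA transcription and assembly, whose products act on the RNAs that Integrator processes, had them at 6 of 13, and at 4 of 13 by the nearest 5′ end alone. There smn-1 (the SMN assembly factor) reached 2.03 ± 0.440, snpc-1.1 (an snRNA activating complex subunit) 1.89 ± 0.651, snpc-3.4 1.79 ± 0.0114 and prmt-5 (an arginine methyltransferase of Sm proteins) 1.19 ± 0.288 times the median (SD, n = 2 each), and the smn-1 summit was nearer to klp-16. No gene of these 4 lists reached the ints-4 multiple of 35.8 ± 1.41. The Integrator set was chosen for that peak, so this contrast is a description only. The genes pabp-2, cpsf-1 and cfim-1 overlapped or exceeded ints-2 in the range of the replicates. The lists were drawn up with earlier results known, and their counts were not tested against each other.

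**Figure D5:**
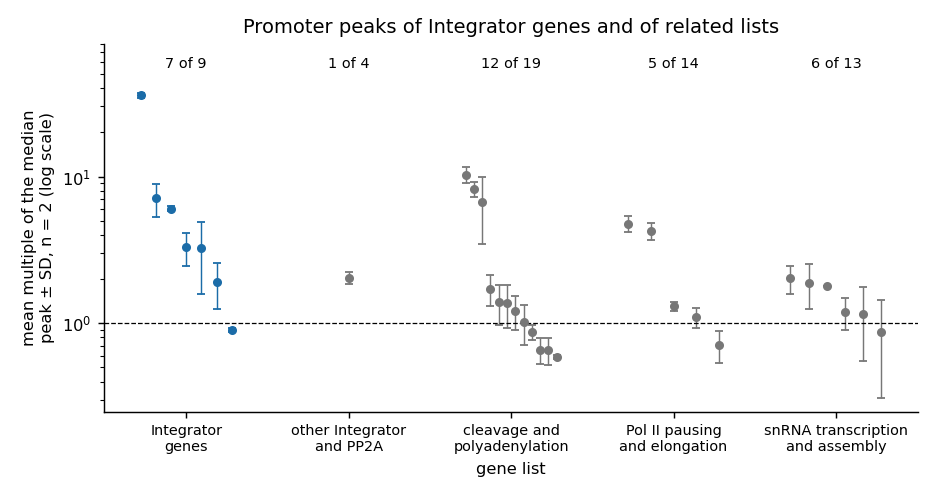
Mean multiple of the replicates' median signal (± SD, n = 2, log scale) for genes with a conservative promoter summit, in the Integrator set (blue) and the 4 related lists (grey); numbers above give genes with a summit of genes in the annotation. ints-4, for whose peak the set was chosen, stands at 35.8 and the highest related gene, pabp-2, at 10.3. The dashed line is a multiple of 1.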

How the data were processed

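The authors deposited 8 peak lists in build ce11 per the labels: conservative, pooled and 1 per replicate, each as a thresholded and a longer ranked list, with aligner, peak caller and control not given in the sources used here. Their deposited signal value is the caller's enrichment. The deposited score follows the IDR, with 830 its lowest value in thresholded lists. The authors' −log10 IDR of ranked lists is capped at 5, and the deposited summit offset placed each summit. In the ranked lists 32 columns (8 in each of the 4) carry no sample name and were not used. Replicate 2's list has 21 mitochondrial peaks, left out.

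Genes were Ensembl release 115 models. A replicate's value at a conservative peak came from the peak of its own ranked list that overlapped by at least 1 bp and had the nearest summit. Means ± SD are over 2 replicates, depth is unknown, and no test was run. Named genes are the 9 members, genes at their peaks, ranks next to ints-4, and per related list up to 4 genes with the strongest peaks and paralogues of members. Members and lists were chosen with earlier results of these data known. Alternatives were the pooled and single-replicate lists, a stronger signal, other windows, any transcript start, another replicate match, another scaling and each replicate left out. Peak assignment was tested on simulated peaks. Work used Python 3.11.15, numpy 2.4.6, pandas 2.3.3 and matplotlib 3.10.9.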

Additional observations from a re-analysis of the deposited data

How the results depend on the processing

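The count of 7 genes with a conservative promoter summit was 7 in the pooled list and 7 to 8 when 1 replicate was left out. With peaks at or above the median signal it was 6 (ints-8 lost), against 9.01% of all genes. It was 7 within 500 bp upstream and 100 bp downstream (10.3% of all genes), 7 from any annotated transcript start (14.1%), and 8 within 2000 bp upstream and 500 bp downstream (ints-11 gained, through the peak at F10B5.2), against 17.0%. The 8 genes with a conservative peak within 2000 bp (25.4% of all genes) stayed at 8 within 1000 bp (20.8%) and with either replicate left out (21.4% to 23.3%), and were 7 when a peak had to overlap the gene (9.91%). The ints-4 multiple of 35.8 ranged from 34.8 to 36.8 with 1 replicate left out. It became 29.1 when each replicate was scaled to the median of its own thresholded list; that scaling lowered all 7 values and kept their order. Without replicate 1 ints-5 passed ints-2, and without replicate 2 ints-3 passed ints-1. No paired analysis was possible because the 2 replicates form 1 group. With 2 replicates, no control analysed here and unknown depth, a peak absent from a list, as at ints-7, shows only that it was not detectable at this depth and threshold.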
